A study of Ovis aries with 6 samples.

Results

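Among the genes of sheep ovary RNA, 74 encode ion channels, their auxiliary subunits or cation pumps, out of 14480 genes in the table and 10189 rows with a symbol. They were taken by symbol, from the families of potassium (KCN), voltage-gated calcium (CACN) and sodium (SCN) channels, chloride channels (CLCN) and intracellular chloride channel proteins (CLIC), transient receptor potential (TRP) channels of the C, M and V groups, PIEZO channels, calcium release channels (ITPR, RYR) and the pumps ATP1 and ATP2. Every symbol stood on a single row. The ovaries were taken at estrus, 3 libraries from Mongolian sheep and 3 from Hu sheep, breeds from China of which the Hu is the prolific one. The sample labels give ovary as the tissue of all 6, while the series title speaks of exosomes from ovaries, and they name no treatment or age. They also do not say whether replicates were separate animals, so that p-values measure only the spread between these libraries, which may be technical. Levels are FPKM, a fragment count divided by transcript length and by the size of the library, which allows levels of different genes to be set side by side. Sequencing depth is unknown. Values are given in the order of replicates 1, 2 and 3.

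Ion channels and pumps set the electrical and ionic state of a cell. The sodium pump, an ATPase that needs a beta subunit to reach the membrane, exports sodium and imports potassium, and potassium channels then let potassium leak out and hold the membrane potential negative. Calcium enters through voltage-gated, TRP and PIEZO channels, is released from the endoplasmic reticulum through inositol trisphosphate and ryanodine receptors, and is removed by calcium pumps of the reticulum (ATP2A), plasma membrane (ATP2B) and Golgi (ATP2C). In the ovary these proteins serve fluid transport into the follicle, calcium signals downstream of hormone receptors, and contraction of smooth muscle in vessels and the follicle wall.

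Most channel genes were scarce, and the Hu libraries differed widely in how many of them were listed at all. Of the 74 genes, 48, 50 and 50 were listed above 0 in the Mongolian libraries and 19, 25 and 64 in the Hu libraries. Hu 1 and Hu 2 lay below every Mongolian library and Hu 3 above, and the mean numbers, 49.3 ± 1.15 in Mongolian and 36 ± 24.4 in Hu (SD, n = 3 each), differed by less than the spread within Hu (exact permutation test, two-sided, p = 0.4, where 3 against 3 cannot go below 0.1). The same order held for the whole table, where 44.9%, 55.0% and 92.1% of the genes were above 0 in Hu and between 72.8% and 79.2% in Mongolian. For the channel and pump genes these shares were 25.7%, 33.8% and 86.5% in Hu and between 64.9% and 67.6% in Mongolian. Of the 74 genes 45 were at 0 in both Hu 1 and Hu 2. Genes that every cell uses are at 0 there too, such as ATP6V1A, a core subunit of the vacuolar proton pump, in Hu 1 and Hu 2. A 0 is described only as listed at 0, and no mean is given for a gene that has one. The part of this difference between libraries in the results below was not tested.

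The summed level of the 74 genes came to 145, 142 and 238 FPKM in the Mongolian libraries and to 56.4, 76.8 and 233 in the Hu libraries. Mongolian 3 and Hu 3 were close to each other and far above Hu 1 and Hu 2. The mean level over the 6 libraries was at least 10 FPKM for 2 genes (CLIC4 and ATP1B1), at least 5 FPKM for 8, and under 1 FPKM for 45, and its median over the 74 genes was 0.598 FPKM. Among the others of the 8 were CLIC1, KCNAB1, ATP2C1, ATP1B2 and ATP2A2, and 5 of the 8 most abundant transcripts were pump genes. In all 6 libraries 14 genes were above 0, all of them among the genes tested below, of which they were 37.8%, against 49.8% of all genes tested. Another 14 were above 0 in 1 library each, which was Hu 3 for 8 of them.

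**Figure D1:**
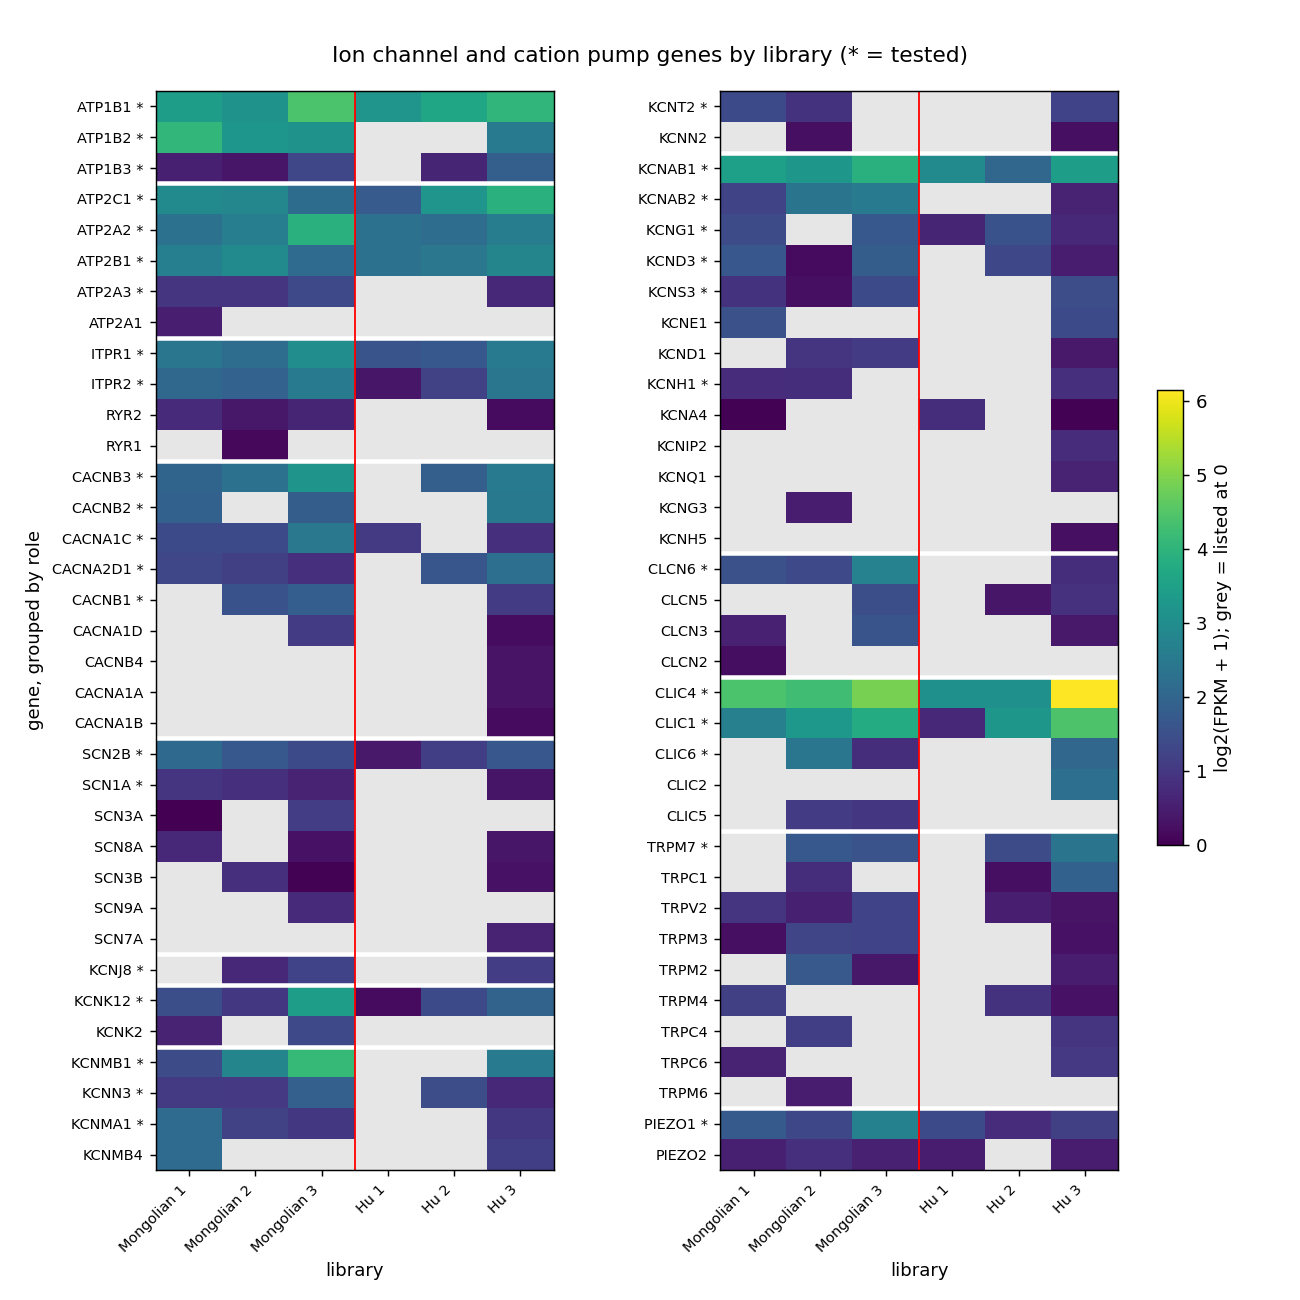
Level of 70 of the 74 genes (rows, grouped by role, white lines between roles) in the 6 libraries (columns, Mongolian left and Hu right of the red line), as log2(FPKM + 1). Grey cells are genes listed at 0, which number 54 in Hu 1 and 47 in Hu 2 against 9 in Hu 3, and an asterisk marks the genes tested.

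The comparison between the breeds asked which channels and pumps differ between ovaries of breeds with different reproductive capacity. No channel or pump gene differed between breeds past the threshold. Testing was limited to genes reaching 0.5 FPKM in 3 or more libraries, which kept 37 of the 74 genes and 9971 of all 14480. Of the 37, 0 passed 0.05 after limma and Benjamini-Hochberg adjustment, where 0% of all genes tested did. At an unadjusted limma p under 0.05, 0 were higher in Hu, where 0.913% of all genes tested were, and 3 were lower (8.11%), where 2.82% of all genes tested were: ATP1B2, KCNAB2 and CLCN6. The adjusted p of the 37 lay between 0.998 and 1.000. The count of genes lower at the unadjusted threshold rested on single libraries: it was 7 without Hu 3, where 14.7% of all genes tested were, 2 without Mongolian 3 (1.14%) and 1 without Hu 2 (1.29%). It was 7 after rescaling to a common sum, where 6.11% of all genes tested were lower at that threshold, 5 after scaling by median ratios (4.56%) and 2 after quantile normalization (2.80%).

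Most of the tested genes lay lower in Hu, as did most genes of the whole table. The log2 difference, Hu minus Mongolian on the log2(FPKM + 1) scale, which understates the change of low genes, was above 0 in 5 of the 37 (13.5%), where 32.3% of all genes tested were above 0. Its median was -0.62 over the 37 and -0.28 over all genes tested. Quantile normalization moved the median of all genes to 0.02 and that of the 37 to -0.19, with 13 of the 37 above 0 against 51.3% of all genes, and rescaling to a common sum moved them to -0.37 and -0.67. Without Hu 1 the medians were -0.27 and 0.01, with 11 of 37 above 0 against 50.8% of all genes, and without Hu 3 they were -0.90 and -0.66, with 2 of 37 above 0 against 18.1%. Without Mongolian 3 they were -0.38 and -0.23, with 8 of 37 above 0 against 34.0%. With each library's count of genes above 0 as a covariate they were -0.42 and 0.03, with 12 of 37 above 0 against 51.7%. The median of the channel and pump genes was below that of all genes under the 14 alternatives fitted on these 37 genes, and the medians differed by -0.58 to -0.15. The other 3 alternatives changed the filter and so the genes, to 74, 9 and 14 channel and pump genes. The tested channel and pump genes were also less abundant than the table, with a median level of 1.82 FPKM against 3.39 for all genes tested.

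In 7 of the 37 genes (18.9%) all Hu values lay below all Mongolian values, where 6.05% of all genes tested did so, and in 0 genes all Hu values lay above, where 1.88% did. SCN1A passed the filter on low values through the Mongolian libraries alone, so that its place among the 7 was fixed by the filter. Without genes that passed through 1 breed alone, 6 remained (16.7%), against 5.42% of all genes tested. Among the 7 genes were ATP1B2, KCNAB2, CLCN6, ATP2A3, CACNA1C and SCN1A. In 5 of the 7 both Hu 1 and Hu 2 were listed at 0. That wider pattern, above 0 in all Mongolian libraries and in Hu 3 but at 0 in Hu 1 and Hu 2, was shown by 8 of the 37 genes and by 10.3% of all genes tested. Hu 3 held the highest of the 6 values in 9 of the 37 genes (24.3%), against 45% of all genes tested, and Mongolian 3 did in 20 (54.1%), against 26.6%.

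**Figure D2:**
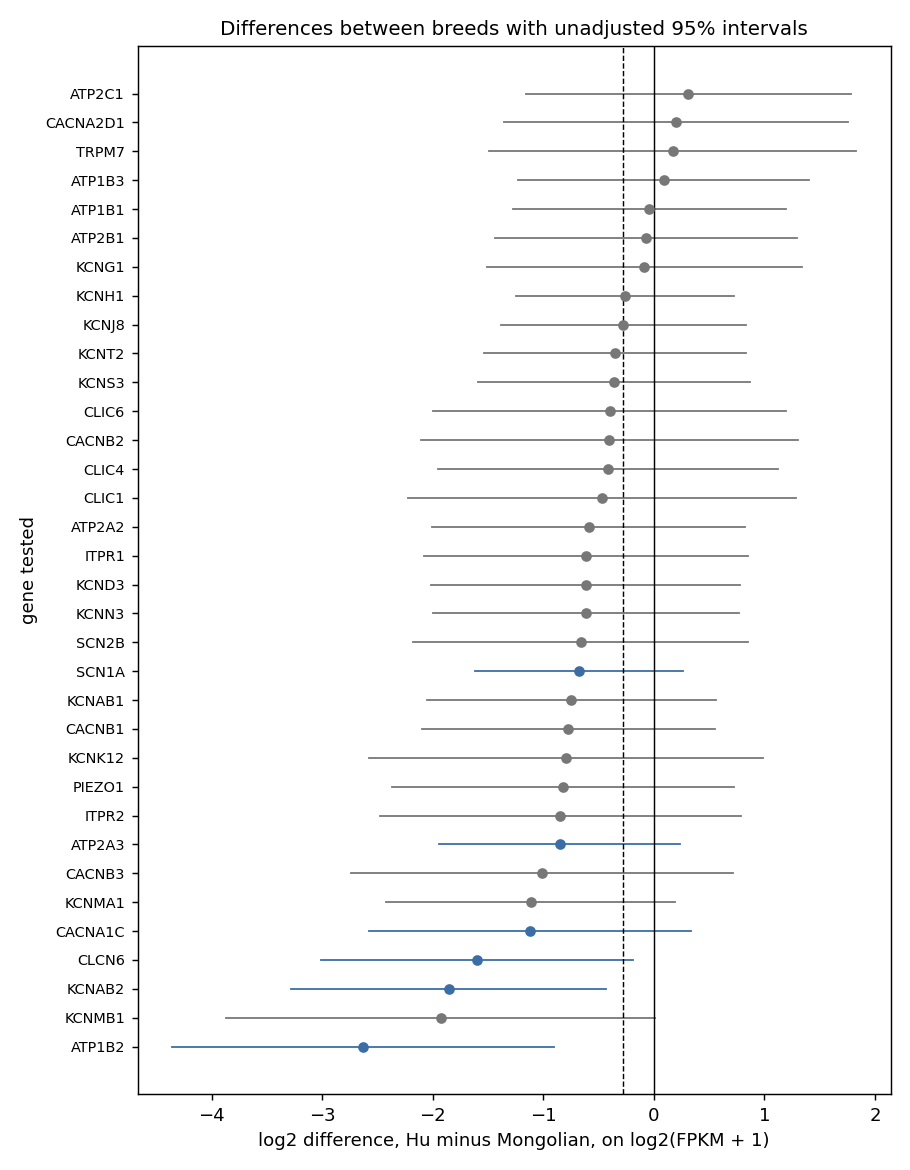
Log2 difference between breeds (x axis, Hu minus Mongolian on log2(FPKM + 1)) with its unadjusted 95% interval for 34 of the 37 genes tested, the dashed line marking the median of all genes tested, -0.28. The 6 genes in blue have all Hu values below all Mongolian values, and the intervals of 3 genes, ATP1B2, KCNAB2 and CLCN6, do not reach 0. SCN1A, among the genes in blue, passed the filter on low values through the Mongolian libraries alone. Its place among them was fixed by the filter, so its interval is not read as a test.

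The sodium pump had 5 listed genes, all tested, and its beta subunits had 3 of them. These 3 differed from each other in how they varied. ATP1B1, the common beta subunit, stood at 9.69, 8.01 and 20.1 FPKM in the Mongolian libraries and at 8.20, 11.3 and 15.5 in the Hu libraries. It was present in every library and the breeds overlapped, with means of 12.6 ± 6.55 FPKM in Mongolian and 11.7 ± 3.67 in Hu (mean ± SD, n = 3 each). ATP1B2, a beta subunit that is also a glial adhesion molecule, stood at 15.8, 8.38 and 7.93 FPKM in the Mongolian libraries and at 0, 0 and 4.93 in the Hu libraries. Both low Hu libraries listed it at 0, and Hu 3 remained under the lowest Mongolian value. Its log2 difference of -2.63 ± 0.81 (SE, 95% interval from -4.36 to -0.90, limma unadjusted p = 0.00535 and adjusted p = 0.998) had the smallest p of the 37 genes. Without any single library the difference lay between -3.49 and -2.20. ATP1B3 was low, at 0.451, 0.304 and 1.48 FPKM in the Mongolian libraries and at 0, 0.554 and 2.65 in the Hu libraries, and its log2 difference of 0.09 turned to -0.01 without Mongolian 1, -0.09 without Mongolian 2 and -0.43 without Hu 3.

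ATP1B2 made up 61.0, 50.2 and 26.9% of the summed beta subunits in the Mongolian libraries and 0, 0 and 21.3% in the Hu libraries. These shares did not overlap, but they come from the same ATP1B2 values and are not a second result. In Mongolian 1 and 2 it was the most abundant beta subunit, and in the other 4 libraries ATP1B1 was. The summed beta subunits were 26.0, 16.7 and 29.5 FPKM in Mongolian and 8.20, 11.8 and 23.1 in Hu. The breeds overlapped in that sum. Of 15 genes that act beside the pump, fixed by name (FXYD regulators, sodium exchangers, ankyrins and others), 8 were listed and 6 tested. Of the 6, 3 had a log2 difference above 0, where 32.3% of all genes tested did, and 3 below. None, 0 of the 6, passed limma's adjusted or unadjusted threshold. FXYD1, a small regulator of the pump, stood at 4.09, 5.50 and 2.48 FPKM in the Mongolian libraries and at 31.2, 0 and 10.5 in the Hu libraries, with its highest and its lowest value both in Hu. SLC9A3R1, a scaffold of sodium transporters, stood at 10.4, 4.73 and 28.8 FPKM in the Mongolian libraries and at 3.62, 2.16 and 8.72 in the Hu libraries.

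**Figure D3:**
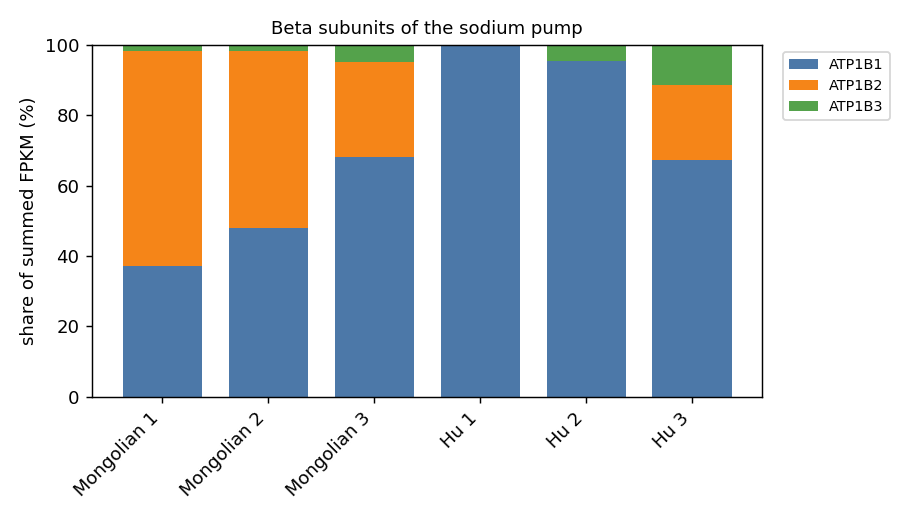
Share (y axis, %) of each isoform in the summed FPKM of the beta subunits of the sodium pump in each library (x axis). ATP1B2 makes up 61.0%, 50.2% and 26.9% in the Mongolian libraries, 21.3% in Hu 3 and 0% in Hu 1 and Hu 2.

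The 3 most abundant calcium pumps were above 0 in all 6 libraries. ATP2B1, the pump of the plasma membrane, stood at 5.33, 6.65 and 3.42 FPKM in the Mongolian libraries and at 3.90, 4.39 and 5.98 in the Hu libraries, and ATP2A2, the widely expressed pump of the endoplasmic reticulum, at 3.97, 5.23 and 14.1 FPKM in the Mongolian libraries and at 3.89, 3.61 and 5.08 in the Hu libraries. The breeds overlapped in both, and Mongolian 3 stood far above the others in ATP2A2, whose mean in Mongolian was 7.77 ± 5.52 FPKM (SD, n = 3) against 4.19 ± 0.782 in Hu. ATP2C1, which loads calcium and manganese into the Golgi, stood at 6.62, 6.18 and 3.52 FPKM in the Mongolian libraries and at 2.43, 8.18 and 14.0 in the Hu libraries. Its lowest and highest values were both in Hu. The log2 difference of 0.31 ± 0.69 (SE, 95% interval from -1.16 to 1.78, limma unadjusted p = 0.659 and adjusted p = 0.998) turned to -0.16 without Hu 3.

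ATP2A3, a reticulum pump of blood cells, endothelium and epithelia, was scarce, at 0.939, 0.916 and 1.55 FPKM in the Mongolian libraries and at 0, 0 and 0.613 in the Hu libraries. All Hu values lay below all Mongolian values, with a log2 difference of -0.85 ± 0.51 (SE, 95% interval from -1.94 to 0.23, limma unadjusted p = 0.116 and adjusted p = 0.998). ATP2A1, the isoform of fast skeletal muscle, was above 0 in Mongolian 1 alone, at 0.434 FPKM, and was not tested. ATP2B2, ATP2B3, ATP2B4 and ATP2C2 had no rows under their symbols.

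**Figure D4:**
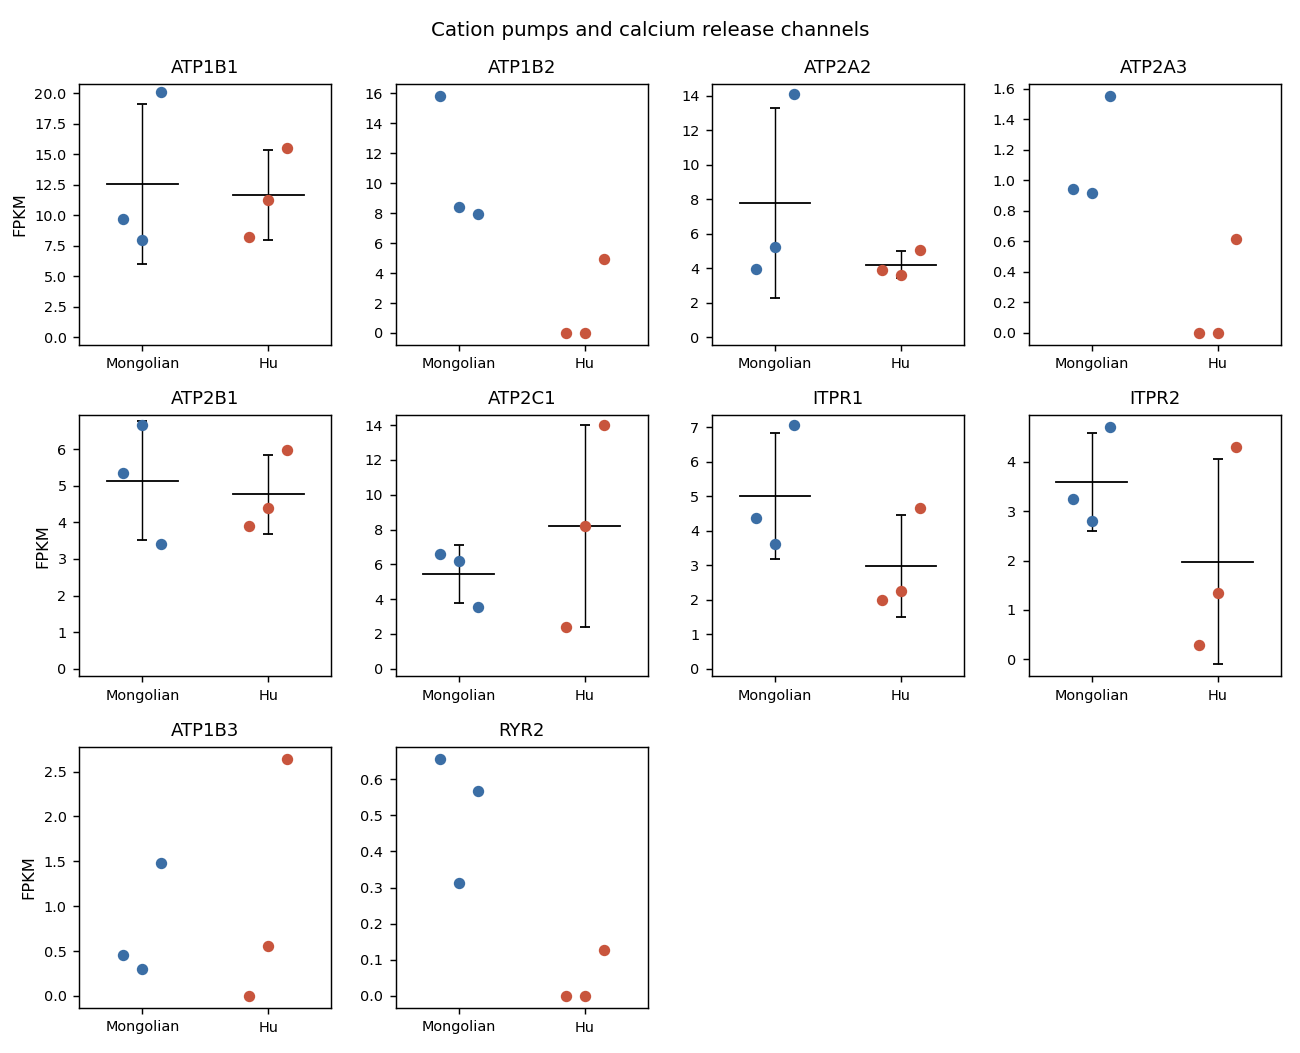
FPKM (y axis, a scale for each gene) of the pump and calcium release genes, 1 point per library, with Mongolian in blue and Hu in red and replicates 1, 2 and 3 from left to right. Lines and bars are the mean and SD (n = 3) and are drawn only for genes above 0 in all 6 libraries; all Hu points of ATP1B2, ATP2A3 and RYR2 lie below all Mongolian points.

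Of the calcium release channels the inositol trisphosphate receptors were the more abundant. ITPR1 stood at 4.36, 3.62 and 7.08 FPKM in the Mongolian libraries and at 2.01, 2.26 and 4.67 in the Hu libraries, and ITPR2 at 3.26, 2.81 and 4.71 FPKM in the Mongolian libraries and at 0.289, 1.34 and 4.30 in the Hu libraries. In both the breeds overlapped, Mongolian 3 was highest and Hu 1 lowest, and Hu 3 lay within the Mongolian range. ITPR1 made up 57.3, 56.3 and 60.1% of the pair in the Mongolian libraries and 87.4, 62.8 and 52.1% in the Hu libraries, nearly constant in Mongolian. The ryanodine receptors, which release calcium in muscle, were at the edge of listing. RYR2, the cardiac form, stood at 0.657, 0.311 and 0.566 FPKM in the Mongolian libraries and at 0, 0 and 0.128 in the Hu libraries, and RYR1, the skeletal form, was above 0 in Mongolian 2 alone, at 0.104 FPKM. Neither was abundant enough to test, and ITPR3 and RYR3 had no rows under their symbols.

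Voltage-gated calcium channels had 9 listed genes, of which 5 were tested. Of these 1 had a log2 difference above 0 and 4 below as deposited, where 32.3% of all genes tested were above 0. After quantile normalization 2 were above 0 and 3 below, where 51.3% of all genes tested were above 0. CACNA1C, the pore of the L-type channel that carries calcium into smooth and cardiac muscle, stood at 1.60, 1.61 and 4.52 FPKM in the Mongolian libraries and at 1.05, 0 and 0.787 in the Hu libraries. All Hu values lay below all Mongolian values, with a log2 difference of -1.12 ± 0.68 (SE, 95% interval from -2.57 to 0.34, limma unadjusted p = 0.123 and adjusted p = 0.998). The beta subunits, which bring the pore to the membrane, overlapped between breeds. CACNB3 stood at 2.96, 3.88 and 8.10 FPKM in the Mongolian libraries and at 0, 2.64 and 4.89 in the Hu libraries, CACNB2 at 2.73, 0 and 2.49 in Mongolian and at 0, 0 and 4.64 in Hu, and CACNB1 at 0, 1.93 and 2.60 in Mongolian and at 0, 0 and 1.10 in Hu. Hu 1 listed all 3 at 0. CACNA2D1, the extracellular subunit bound by gabapentin, stood at 1.47, 1.23 and 0.797 FPKM in the Mongolian libraries and at 0, 2.15 and 3.78 in the Hu libraries, with the highest value in Hu 3. Its log2 difference of 0.20 ± 0.73 (SE, 95% interval from -1.36 to 1.76, limma unadjusted p = 0.787 and adjusted p = 0.998) turned to -0.27 without Hu 3. The L-type pore CACNA1D reached 1.10 FPKM in Mongolian 3 and 0.151 in Hu 3. CACNA1A and CACNA1B, pores of neuronal channels, and CACNB4 were above 0 in Hu 3 alone, at 0.243, 0.124 and 0.253 FPKM.

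Sodium channels had 8 listed genes. SCN2B, a small auxiliary subunit, stood at 3.32, 2.26 and 1.62 FPKM in the Mongolian libraries and at 0.340, 1.20 and 2.17 in the Hu libraries, with Hu 1 and Hu 2 lowest. SCN1A, a pore subunit best known from neurons, stood at 0.903, 0.788 and 0.516 FPKM in the Mongolian libraries and at 0, 0 and 0.265 in the Hu libraries. Its values stayed under 1 FPKM throughout, and since it passed the filter through the Mongolian libraries alone, no test of it is given. Another 5 genes were not tested: SCN3A, SCN8A, SCN3B, SCN9A and SCN7A reached 1.17 FPKM at most, the value of SCN3A in Mongolian 3. In RefSeq's annotation of assembly ARS-UI_Ramb_v3.0, SCN7A, SCN9A and SCN1A stand next to each other in the order of protein-coding genes. They did not share 1 pattern here, as SCN9A was above 0 in Mongolian 3 alone and SCN7A in Hu 3 alone.

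Potassium channels and their subunits formed the largest family, with 23 listed genes, of which 12 were tested. All 12 had a log2 difference below 0 as deposited, where 32.3% of all genes tested were above 0. The count below 0 also varied with the setting, and each bracket gives the share of all genes tested in the opposite direction, above 0. Under quantile normalization 7 of the 12 were below 0 (51.3% of all genes above 0). Under scaling by median ratios 11 were below 0 (36.2% of all genes above 0), and under rescaling to a common sum 12 (28.2% above 0). With array weights 10 were below 0 (29.5% of all genes above 0), and without Mongolian 3 also 10 (34.0% above 0). Without both Hu 1 and Hu 3, 9 were below 0 (30.9% of all genes above 0). The median of the 12 was -0.62, against -0.28 for all genes tested. It moved to -0.14 under quantile normalization, to -0.28 without Hu 1 and to -1.37 with a pseudocount of 0.1. By limma 0 passed the adjusted threshold, and 1, KCNAB2, was lower in Hu at the unadjusted one, where 2.82% of all genes tested were.

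KCNAB1, a cytoplasmic beta subunit of voltage-gated potassium channels, had the highest mean level of the 23. It stood at 10.2, 8.59 and 14.1 FPKM in the Mongolian libraries and at 6.73, 3.09 and 9.83 in the Hu libraries. It was above 0 in every library and the breeds overlapped, with means of 10.96 ± 2.84 FPKM in Mongolian and 6.55 ± 3.37 in Hu (mean ± SD, n = 3 each). KCNAB2, a second such subunit, stood at 1.40, 4.13 and 4.94 FPKM in the Mongolian libraries and at 0, 0 and 0.540 in the Hu libraries. Its Hu values all lay below the lowest Mongolian value, with a log2 difference of -1.86 ± 0.67 (SE, 95% interval from -3.28 to -0.43, limma unadjusted p = 0.0139 and adjusted p = 0.998). The difference lay between -2.26 and -1.60 when each library was left out in turn. The pore subunits of this class were low. KCND3 stood at 2.18, 0.138 and 2.51 in Mongolian and at 0, 1.51 and 0.410 in Hu, KCNG1 at 1.72, 0 and 2.23 in Mongolian and at 0.543, 1.94 and 0.619 in Hu, and KCNS3 at 0.874, 0.199 and 1.60 in Mongolian and at 0, 0 and 1.75 in Hu. In these 3 genes the breeds overlapped. KCNH1 was tested as well and did not exceed 0.763 FPKM. The 8 others, among them KCNE1, KCND1, KCNA4, KCNIP2, KCNQ1, KCNG3 and KCNH5, were not tested; KCNE1 reached 1.88 FPKM in Mongolian 1, and KCNIP2, KCNQ1 and KCNH5 were above 0 in Hu 3 alone.

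The large-conductance calcium-activated potassium (BK) channel, which relaxes smooth muscle, was listed at 0 in Hu 1 and Hu 2 for every subunit in the table. KCNMA1, its pore, stood at 3.45, 1.29 and 0.993 FPKM in the Mongolian libraries and at 0, 0 and 1.01 in the Hu libraries, and KCNMB1, the beta subunit typical of smooth muscle, at 1.70, 5.92 and 16.5 FPKM in the Mongolian libraries and at 0, 0 and 4.94 in the Hu libraries. Hu 3 lay inside the Mongolian range for both. KCNMB1 had a log2 difference of -1.93 ± 0.91 (SE, 95% interval from -3.87 to 0.01, limma unadjusted p = 0.0515 and adjusted p = 0.998), between -2.78 and -1.26 when each library was left out in turn, and KCNMA1 a log2 difference of -1.11 ± 0.61 (SE). The ratio of KCNMB1 to KCNMA1 was 0.493, 4.59 and 16.6 in the Mongolian libraries and 4.90 in Hu 3, so that the ratio varied widely within 1 breed. KCNMB4, the beta subunit typical of neurons, was above 0 in Mongolian 1 and Hu 3 alone, at 3.47 and 1.21 FPKM.

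Markers of smooth muscle were present in every library. Of 10 fixed markers 9 were listed and tested, and none was at 0 in any library. Of the 9, 5 had a log2 difference above 0 and 4 below as deposited, with a median of 0.03. Of all genes tested 32.3% were above 0, with a median of -0.28. After quantile normalization 3 of the 9 were above 0 and 6 below, against 51.3% of all genes above 0. The summed level of the 9 ranged from 781 to 994 FPKM in Mongolian and from 632 to 1480 in Hu. MYH11, smooth muscle myosin, stood at 224, 195 and 303 FPKM in the Mongolian libraries and at 105, 110.2 and 176 in the Hu libraries, and SMTN, smoothelin, at 20.01, 14.2 and 41.6 FPKM in the Mongolian libraries and at 14.2, 9.42 and 12.97 in the Hu libraries. These were the only 2 of the 9 with all Hu values below all Mongolian values, where 6.05% of all genes tested did so. For SMTN the gap was narrow, 14.22 in Mongolian 2 against 14.20 in Hu 1. As deposited, the log2 differences of CNN1, TAGLN, ACTA2, ACTG2 and DES were 0.50, 0.30, 0.27, 0.06 and 0.03. Those of MYLK and SYNPO2 were -0.50 and -0.08. The part of smooth muscle in the levels of CACNA1C, KCNMA1 and KCNMB1 was not tested. In these bulk samples fewer cells of a type and less RNA per cell cannot be told apart.

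Among the other potassium channels KCNN3, a small-conductance calcium-activated channel, stood at 1.08, 1.05 and 2.71 FPKM in the Mongolian libraries and at 0, 1.73 and 0.602 in the Hu libraries. The sodium-activated channel KCNT2 stood at 1.60, 0.880 and 0 in Mongolian and at 0, 0 and 1.35 in Hu. Hu 1 listed both at 0, and the breeds overlapped. KCNN2 was not tested and stood under 0.2 FPKM. The tandem-pore leak channels, which set the resting potential, were represented by KCNK12, at 1.79, 0.989 and 9.81 FPKM in the Mongolian libraries and at 0.130, 1.63 and 2.86 in the Hu libraries, and by KCNK2, above 0 only in Mongolian 1 and Mongolian 3, at 0.537 and 1.54 FPKM. For KCNK12 the value in Mongolian 3 stood apart from the other 5. KCNJ8, the pore of the ATP-sensitive channel of pericytes and vascular muscle, was the only inward rectifier listed, at 0, 0.629 and 1.35 in Mongolian and at 0, 0 and 1.16 in Hu.

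Chloride channels of the CLC family had 4 listed genes. CLCN6, a chloride and proton exchanger of late endosomes, stood at 1.86, 1.55 and 5.65 FPKM in the Mongolian libraries and at 0, 0 and 0.736 in the Hu libraries. All Hu values lay below all Mongolian values, with a log2 difference of -1.60 ± 0.66 (SE, 95% interval from -3.01 to -0.19, limma unadjusted p = 0.0285 and adjusted p = 0.998). Without any single library the difference lay between -1.87 and -1.17. The endosomal exchangers CLCN5 and CLCN3 reached 1.78 and 2.04 FPKM, both in Mongolian 3, and CLCN2 was above 0 in Mongolian 1 alone. None of the 3 was abundant enough to test.

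The CLIC proteins, soluble proteins related to glutathione transferases whose work as channels is debated, held the most abundant transcript of the group. CLIC4 stood at 20.2, 18.3 and 28.8 FPKM in the Mongolian libraries and at 7.45, 7.57 and 70.2 in the Hu libraries. The single value in Hu 3 was the highest of any of the 74 genes in any library, while Hu 1 and Hu 2 lay below every Mongolian library. The resulting log2 difference of -0.41 ± 0.72 (SE, 95% interval from -1.96 to 1.13, limma unadjusted p = 0.576 and adjusted p = 0.998) turned to 0.10 without Hu 1 and 0.09 without Hu 2, against -1.44 without Hu 3. CLIC1 stood at 5.45, 8.76 and 12.9 FPKM in the Mongolian libraries and at 0.621, 8.48 and 20.6 in the Hu libraries, with both its lowest and its highest value in Hu. CLIC4 made up 30.1% of the summed FPKM of the 74 genes in Hu 3 and between 9.86% and 14.0% in the other 5 libraries. CLIC6 stood at 0, 4.34 and 0.757 in Mongolian and at 0, 0 and 3.08 in Hu, CLIC5 was above 0 in Mongolian 2 and Mongolian 3 alone, and CLIC2 in Hu 3 alone, at 3.77 FPKM, the highest value among the 37 channel and pump genes that were not tested.

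**Figure D5:**
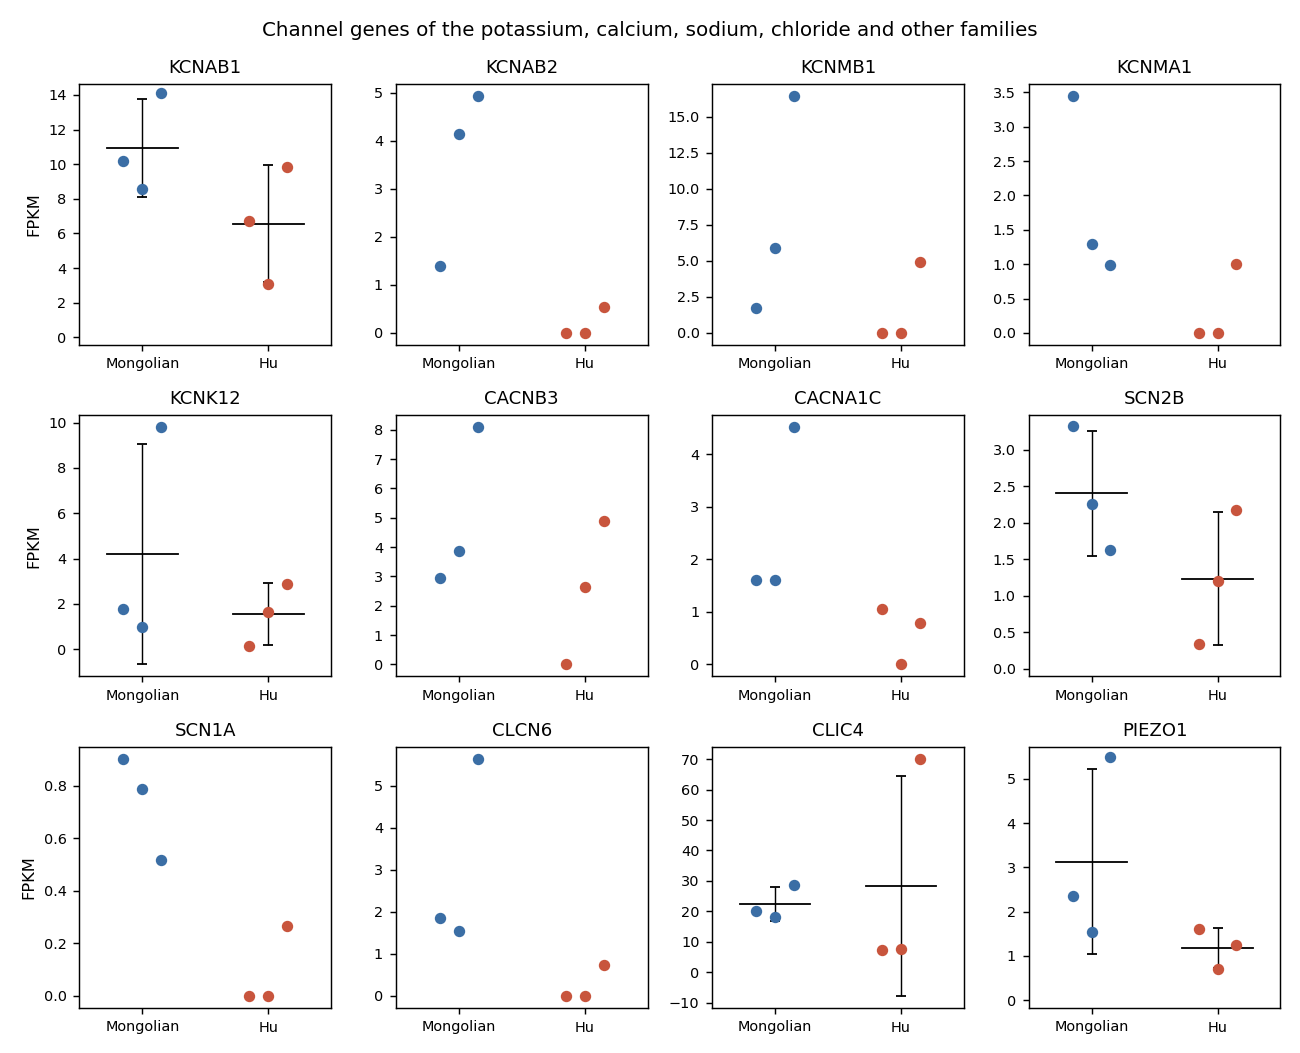
FPKM (y axis, a scale for each gene) of 12 channel genes, 1 point per library, with Mongolian in blue and Hu in red and replicates 1, 2 and 3 from left to right. Lines and bars are the mean and SD (n = 3) for genes above 0 in all 6 libraries; all Hu points of KCNAB2, CACNA1C, SCN1A and CLCN6 lie below all Mongolian points, and CLIC4 reaches 70.2 FPKM in Hu 3.

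TRP channels, cation channels gated by lipids, temperature, stretch or store depletion, had 9 listed genes of which TRPM7 alone was tested. TRPM7, a magnesium channel fused to a kinase, stood at 0, 2.25 and 1.99 FPKM in the Mongolian libraries and at 0, 1.69 and 4.17 in the Hu libraries. It was at 0 in 1 library of each breed, and its log2 difference of 0.17 ± 0.78 (SE) turned to -0.38 without Mongolian 1 and -0.38 without Hu 3. TRPC1, a channel of the canonical group, stood at 0, 0.737 and 0 in Mongolian and at 0, 0.201 and 2.76 in Hu, and TRPV2 at 0.917, 0.466 and 1.37 in Mongolian and at 0, 0.429 and 0.249 in Hu. TRPM2, TRPM3, TRPM4, TRPM6, TRPC4 and TRPC6 stayed at or under 2.29 FPKM, the value of TRPM2 in Mongolian 2. Hu 1 listed all 9 TRP genes at 0.

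The stretch-activated channels are PIEZO1 and PIEZO2. PIEZO1, the mechanosensor of endothelium and red cells, stood at 2.36, 1.54 and 5.49 FPKM in the Mongolian libraries and at 1.60, 0.707 and 1.25 in the Hu libraries. Mongolian 3 was highest, the other values overlapped between breeds, and the means were 3.13 ± 2.08 FPKM in Mongolian and 1.19 ± 0.451 in Hu (mean ± SD, n = 3 each). PIEZO2, the touch channel of sensory neurons, stood at 0.454, 0.771 and 0.481 in Mongolian and at 0.399, 0 and 0.393 in Hu and was not tested.

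Genes that work beside these channels were examined from lists fixed by name. Of 34 calcium handling genes 24 were listed and 17 tested. The 17 had 9 log2 differences above 0 and 8 below (13 and 4 after quantile normalization, 7 and 10 after rescaling to a common sum). Their median was 0.05 and 0 were past limma's adjusted or unadjusted threshold. Of all genes tested 32.3% were above 0, with a median of -0.28. That share was 51.3% after quantile normalization and 28.2% after rescaling. CALR, calreticulin, which binds calcium in the reticulum, stood at 79.6, 90.0 and 93.6 FPKM in the Mongolian libraries and at 121, 99.6 and 161 in the Hu libraries. It was the only 1 of the 17 with all Hu values above all Mongolian values, where 1.88% of all genes tested did so. SLC8A1, the sodium and calcium exchanger of the plasma membrane, stood at 7.25, 5.06 and 14.0 FPKM in the Mongolian libraries and at 0, 6.74 and 11.4 in the Hu libraries. STIM1, the sensor of store depletion, stood at 0.973, 1.26 and 1.996 FPKM in the Mongolian libraries and at 0, 0 and 1.28 in the Hu libraries. In SLC8A1 and STIM1 Hu 1 was listed at 0, and Hu 3 lay inside the Mongolian range.

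Of 44 other channel genes fixed by name 23 were listed and 15 tested, with 4 log2 differences above 0 and 11 below (9 and 6 after quantile normalization), a median of -0.07 and 0 past limma's adjusted or unadjusted threshold. The mitochondrial porins led them, VDAC2 at 18.1, 16.6 and 17.2 FPKM in the Mongolian libraries and at 8.89, 21.8 and 46.8 in the Hu libraries. LRRC8D, a subunit of the volume-regulated anion channel, stood at 0.633, 2.44 and 7.16 FPKM in the Mongolian libraries and at 0.507, 0.603 and 0.106 in the Hu libraries. It was the only 1 of the 15 tested with all Hu values below all Mongolian values, where 6.05% of all genes tested did so. Of 27 other cation pump genes, mostly subunits of the vacuolar proton pump, 22 were listed and 20 tested. The 20 had 6 log2 differences above 0 and 14 below (13 and 7 after quantile normalization) and a median of -0.25. Again 0 were past limma's adjusted or unadjusted threshold. Beside both lists, 32.3% of all genes tested were above 0 as deposited, with a median of -0.28, and 51.3% after quantile normalization. ATP6V1F, a subunit of the cytosolic part of the vacuolar proton pump, stood at 10.2, 6.79 and 7.29 FPKM in the Mongolian libraries and at 14.7, 16.3 and 23.6 in the Hu libraries. It was the only 1 of the 20 with all Hu values above all Mongolian values, where 1.88% of all genes tested did so.

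Markers of other tissues were read beside these levels, and their part in them was not tested. Of 9 nerve and glia markers 4 were listed (SOX10, S100B, SNAP25 and UCHL1), with a summed level from 2.25 to 11.7 FPKM in Mongolian and from 0 to 7.68 in Hu. SNAP25 reached 0.784 FPKM at most. Of 11 striated muscle markers 4 were listed, and TNNI3 alone exceeded 1 FPKM, so that the summed level ran from 4.17 to 26.3 FPKM in Mongolian and from 0 to 3.55 in Hu. Both lists were at 0 in Hu 1, where 55 of the 74 channel and pump genes were at 0 too. Endothelial markers, 7 of 8 listed, summed to between 6.96 and 16.1 FPKM in Mongolian and between 15.9 and 23.4 in Hu, and stromal markers, 5 of 6 listed, to between 635 and 746 and between 665 and 860.1. Surface epithelium markers, 4 of 6 listed, summed to between 3.55 and 32.6 FPKM in Mongolian and between 0 and 10.99 in Hu. The sums of surface epithelium, nerve and glia, striated muscle and steroidogenic markers were highest in Mongolian 3, as were those of the few listed red cell and oocyte markers. Smooth muscle and endothelial sums were highest in Hu 3, granulosa in Hu 1, stroma in Hu 2 and immune in Mongolian 2. Mongolian 3 held the highest value in 20 of the 37 tested genes (54.1%), against 26.6% of all genes tested. Immune markers, 6 of 6 listed, summed to between 8.40 and 38.9 FPKM in Mongolian and between 6.54 and 20.7 in Hu.

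As to the ovary label, granulosa markers, 4 of 7 listed (FSHR, INHA, INHBA and HSD17B1), summed to between 43.6 and 55.5 FPKM in Mongolian and between 26.2 and 182 in Hu, and steroidogenic markers, 6 of 6 listed, to between 19.8 and 105 and between 16.7 and 87.9. CYP19A1, AMH and FOXL2 had no rows under their symbols. Oocyte markers were nearly absent: of 8, GDF9 and ZP3 were listed, both at 0 in 4 or more libraries. Of 5 red cell markers AHSP alone was listed, above 0 in Mongolian 3 alone.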

How the data were processed

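Sheep ovary RNA was made into 6 libraries of polyadenylated RNA with a SMARTer kit, per the labels' protocols. The authors deposited FPKM values per gene and library; the sources used here do not give the aligner, counting tool or genome build. Columns were matched to samples by the codes in the sample descriptions, and the titles gave breed and replicate number. Steps of whole reads were looked for among low values: at most 0.566% of genes under 2 FPKM in both of 2 libraries shared a ratio within a bin of 0.2%, so no counts were recovered. No 2 libraries held an identical value above 0. Genes reaching 0.5 FPKM in 3 or more libraries were tested on log2(FPKM + 1) with limma 3.58.1 in R 4.3.3 (lmFit, eBayes with a trend, breed as the only factor, two-sided, Benjamini-Hochberg over all 9971 genes tested, threshold 0.05), and the fit was tested on simulated data. Values by library, counts and shares are descriptions.

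The members, gene lists and alternatives were chosen with earlier results of these data known. Log2 differences are given for up to 6 genes in each direction with the smallest p, for genes with a mean of at least 20 FPKM, and levels for the 3 most abundant genes of each role and all pump and release genes. The differences of ATP2A3 and CACNA1C, whose breeds did not overlap, partner genes, and further members given singly were chosen after their values were seen. RefSeq's table (assembly ARS-UI_Ramb_v3.0), used for names and gene order only, holds 72 of the 74 symbols, among 186 that fit the same pattern. Libraries were not paired by replicate number in the main fit, and whether same-numbered libraries belong together is unknown. The table of lncRNAs was not used here. Some genes are counted in the totals but not reported here.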

Additional observations from a re-analysis of the deposited data

How the results depend on the processing

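The count of 0 channel and pump genes past the threshold held under 16 of the 17 alternatives, and array weights gave 2, ATP1B2 (-3.46, limma adjusted p = 0.00645) and KCNAB2 (-1.85, limma adjusted p = 0.0412), with weights of 3.64 on Hu 2, 0.412 on Hu 1 and 0.25 on Hu 3. Over all genes array weights called 633, leaving out Hu 1 and Hu 3 together called 6, and leaving out 1 library called from 0 to 4. The median difference of the channel and pump genes was -1.19 with a pseudocount of 0.1, and between -0.90 and -0.27 when 1 library was left out.

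Directions turned for 5 of the 12 genes with a difference given. With a pseudocount of 0.1 CACNA2D1 turned to -0.37 and ATP1B3 to -0.32, and CLIC4 to 0.33 where the count of genes above 0 entered as a covariate. With rescaling to a common sum ATP1B3 turned to -0.071. With Hu 1 and Hu 3 left out together ATP1B3 turned to -0.11. When 1 library was left out ATP2C1 ranged from -0.16 to 0.90, CACNA2D1 from -0.27 to 0.85, TRPM7 from -0.38 to 0.80, ATP1B3 from -0.43 to 0.51 and CLIC4 from -1.44 to 0.10. The 7 genes whose breeds did not overlap were picked for Hu values below all Mongolian values, SCN1A among them through the filter. Leaving out, weighting or blocking libraries, or changing the pseudocount or filter, therefore could not turn their direction. Scaling by median ratios, quantile normalization, rescaling to a common sum and the covariate could have, and there the 7 stayed below 0. A filter of 5 FPKM kept ATP1B2 alone of them. Their sizes moved: with a pseudocount of 0.1 ATP1B2 was at -4.80, KCNAB2 at -4.10, CLCN6 at -3.71, ATP2A3 at -2.65 and CACNA1C at -2.35, and quantile normalization gave -1.06 for CLCN6, -0.28 for ATP2A3 and -0.53 for CACNA1C. Without Hu 1 and Hu 3 CACNA1C was at -1.74. Summing the rows of a symbol changed nothing, since 0 symbols had a second row. With the replicate number as a block 0 channel and pump genes and 0 genes of the table were called, and the median difference stayed at -0.62; the correlations of same-numbered libraries, as deviations from their breed's mean, lay between -0.18 and -0.01. Depth is unknown, so a 0 cannot be told from a missed transcript, and the median 95% interval of the 37 genes reached 1.42 to either side.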
